A study of Mus musculus with 6 samples.

Results

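The dystrophin-glycoprotein complex was followed here through 8 of its genes, Dmd, Utrn, Dag1, Sgca, Sgcb, Sgcd, Dtna and Sspn, chosen by symbol, and all 8 were found among the 13226 genes of the count table. The RNA came from whole tibialis anterior (TA) muscles of male C57BL/6 mice, injected at 8 weeks of age and taken after 7 days. One group of 3 muscles received AAV6:Yap-shRNA, an adeno-associated viral vector that carries a short hairpin RNA against Yap, a transcriptional co-activator of the Hippo pathway. The other group of 3 received the control vector, which the vector field and the study design name as AAV6:LacZ-shRNA and the sample titles as an empty vector. Treated and control muscles were contralateral muscles of 3 animals, all of the same strain and with no other allele or treatment named. The Yap-shRNA was placed in a vector backbone with the CMV promoter and eGFP, the RNA was of the whole muscle, and no label says how many fibres were transduced, so the values average over fibres with and without vector and over all other cells of the muscle.

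Dystrophin, the product of Dmd, is a long rod-like protein that ties the actin cytoskeleton under the muscle fibre membrane to a complex of membrane proteins. Dystroglycan, made from Dag1, spans the membrane and binds laminin outside the fibre. The sarcoglycans and sarcospan form a subcomplex beside it, while alpha-dystrobrevin and the syntrophins bind on the inside and recruit signalling proteins such as the neuronal nitric oxide synthase. Loss of dystrophin causes Duchenne muscular dystrophy, and loss of single sarcoglycans causes limb-girdle muscular dystrophies. Utrophin, the autosomal relative of dystrophin, is concentrated at the neuromuscular junction of adult muscle.

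Library totals ranged from 11987167 to 12710393 counts. Yap1, the targeted gene, averaged 68.3 ± 2.96 CPM over the controls and 31.8 ± 7.80 CPM over the treated muscles (SD, n = 3 each), where CPM are counts scaled to a common library size by the TMM method. All 3 treated muscles were below all 3 controls, with a log2 fold change of -1.10 (standard error 0.16). The adjusted p of Yap1 was 0.436 by the quasi-likelihood test of edgeR, above the threshold of 0.05, but 5.85e-07 by DESeq2 and 2.22e-06 by the likelihood ratio test of edgeR. Of the 8 muscle fibre markers (Acta1, Ckm, Myh1, Myh2, Myh4, Tnnt3, Tnni2 and Ttn) all were present, and their sum was 126189 to 146851 CPM in controls and 122129 to 143269 CPM in treated muscles. Control muscles 1 and 2 stood apart from the other libraries. Each was the highest of the 6 muscles for 22.1 to 23.6% of all genes and the lowest for 22.0 to 23.1%, against 12.2 to 15.4% for each of the other 4 libraries in either place. Their deviations followed gene length in opposite directions. For the 2327 genes with merged exons of up to 2000 bp, the median deviation of log2 CPM from the mean of the 6 muscles was -0.12 in control 1 and 0.13 in control 2. For the 276 genes over 16000 bp it was 0.16 in control 1 and -0.14 in control 2. In the other 4 libraries no length class deviated by more than 0.030.

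No gene of the complex passed the test between the groups, and neither did any other gene, the targeted Yap1 included. In the quasi-likelihood test of edgeR, with p-values adjusted over all genes after Benjamini and Hochberg, 0 of the 8 had an adjusted p under 0.05, and 0 of the 13226 genes did (0%), so the count does not set the complex apart. At an unadjusted p under 0.05 the count was again 0 of 8, against 1.75% of all genes (0.869% lower and 0.885% higher in treated muscles), and neither DESeq2 nor the likelihood ratio test of edgeR, which each called 5 genes, called any of the 8. The log2 fold changes lay between -0.39 for Sgcd and 0.042 for Dag1. Of the 8 genes 7 were below 0, against 51.1% of all genes, and their median was -0.049, against -0.0029 for all genes. The muscle fibre markers lay the same way, with 7 of 8 below 0 and a median of -0.042. Only Sspn had all 3 treated muscles below all 3 controls in scaled CPM. Of all genes, 2.71% showed a separation in that direction, 2.56% in the other and 5.27% in either. In whole muscle, fewer cells of a type and less RNA per cell cannot be told apart.

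**Figure D1:**
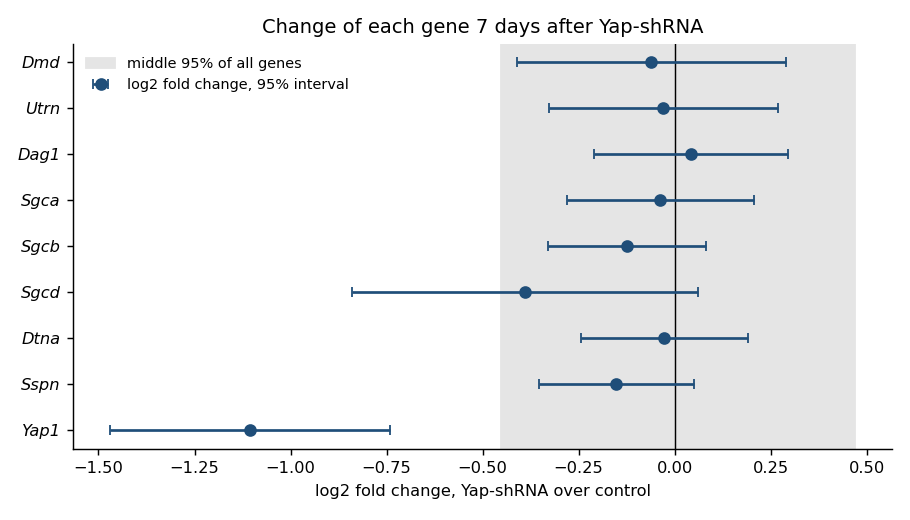
Log2 fold change (Yap-shRNA over control, horizontal axis) of the 8 complex genes and of Yap1, with 95% intervals of the quasi-likelihood fit on 3 against 3 muscles; the grey band holds the middle 95% of all genes, from -0.45 to 0.47. All 8 intervals of the complex genes cross 0, and that of Yap1 runs from -1.47 to -0.74.

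The intervals set the size of change that these muscles could hide. With 95% confidence, Dmd lay between 75.2 and 122.3% of its control level and Utrn between 79.6 and 120.4%. The narrowest were those of Sgcb and Sspn, at 79.5 to 105.8% and 78.3 to 103.5%, and the widest was that of Sgcd, at 55.8 to 104.3%. A fall of the size of that of Yap1, to 46.5% of control, was outside the interval of each of the 8 genes.

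Dmd (ENSMUSG00000045103) lies on the plus strand of the X chromosome of GRCm38, from position 82948870 to 85206141, a span of 2257272 bp. Its principal transcript has 79 exons and encodes 3678 amino acids, and the GENCODE annotation lists 14 transcripts, of which 3 are protein coding. The shortest of these has a coding sequence of 1812 nucleotides, and counts per gene do not separate it from full-length dystrophin. In control muscles 1 to 3, 1133, 719 and 1007 reads were counted on Dmd, against 899, 827 and 1036 in Yap-shRNA muscles 1 to 3. Scaled, these were 88.2, 60.1 and 82.6 CPM in controls and 75.4, 63.5 and 82.6 CPM in treated muscles. The groups overlapped fully, since control 1 was the highest and control 2 the lowest of the 6 muscles. Dmd had a log2 fold change of -0.061 (standard error 0.16, adjusted p = 1.00 by edgeR's quasi-likelihood test). It was 0.049 without control 1, 0.037 without Yap-shRNA 2 and -0.21 without control 2, so single muscles set its sign.

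Utrn (ENSMUSG00000019820), on the minus strand of chromosome 10 from position 12382188 to 12869365, encodes utrophin, with 3430 amino acids in 74 exons. It stood at 27.5, 19.6 and 25.7 CPM in control muscles and at 24.3, 23.3 and 23.7 CPM in treated muscles. The treated muscles lay close together inside the range of the controls, where control 1 was again highest and control 2 lowest. A log2 fold change of -0.030 was fitted (standard error 0.13, adjusted p = 1.00 by the quasi-likelihood test), which turned positive without control 1 (0.069) and without control 3 (0.012). Although utrophin and dystrophin are relatives, the longest identical stretch of their annotated transcripts was 25 bases, and none of the 23877 distinct 50-base words of the Dmd transcripts occurred in a transcript of another gene.

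For every 100 reads on Dmd there were 31.2, 32.7 and 31.1 reads on Utrn in control muscles and 32.3, 36.8 and 28.7 in treated muscles. Both genes moved together from control to control, so that this ratio spread less among the 3 controls (31.6 ± 0.904, SD) than either gene alone. That SD was smaller than the counting error of Utrn alone would give, which was 5.32 to 6.52% of a count. Among treated muscles it was 32.6 ± 4.05 (SD), a range that took in all 3 controls. The balance of utrophin to dystrophin transcripts was not separated between the groups.

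Dag1 (ENSMUSG00000039952) lies on the minus strand of chromosome 9, from position 108204634 to 108263958, and encodes both alpha- and beta-dystroglycan as 1 precursor of 893 amino acids. It was measured at 274.9, 224.2 and 271.4 CPM in control muscles and 251.0, 253.7 and 288.7 CPM in treated muscles. Yap-shRNA 3 was the highest and control 2 the lowest. Dag1 had the only log2 fold change above 0 among the 8 genes, 0.042 (standard error 0.11, adjusted p = 1.00 by the quasi-likelihood test), and it fell to -0.047 without control 2 and to -0.026 without Yap-shRNA 3.

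Sgca (ENSMUSG00000001508) encodes alpha-sarcoglycan, the sarcoglycan most restricted to striated muscle, and lies on the minus strand of chromosome 11 from position 94962791 to 94976327. Its levels were 213.9, 274.2 and 249.4 CPM in controls and 240.2, 234.3 and 244.1 CPM in treated muscles. Here control 1 was the lowest and control 2 the highest, the reverse of their order for Dmd, Utrn and Dag1. The 3 treated muscles again fell between them. Sgca had a log2 fold change of -0.037 (standard error 0.11, adjusted p = 1.00 by the quasi-likelihood test), and 0.048 without control 2.

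**Figure D2:**
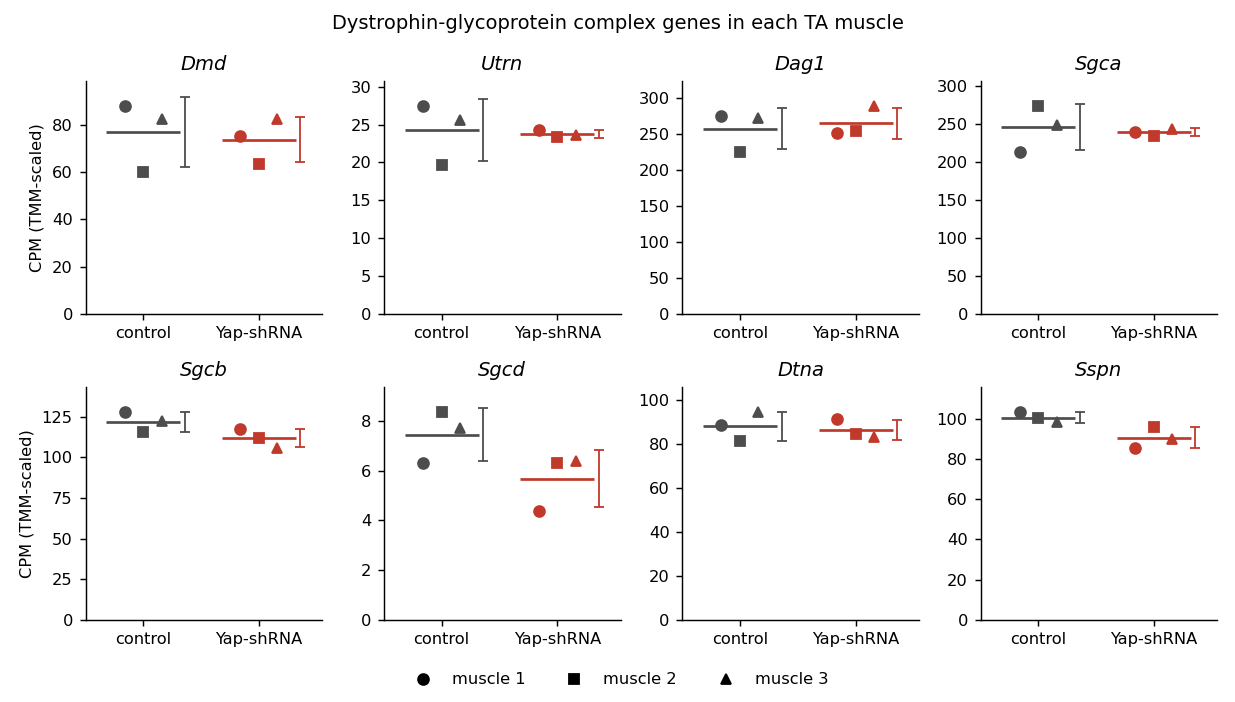
TMM-scaled CPM (vertical axes, from 0) of each complex gene in the 3 control and 3 Yap-shRNA muscles, with one marker shape per muscle number; horizontal lines are means and bars SDs. Control 2 (square) is the lowest of the 6 for Dmd, Utrn, Dag1 and Dtna and the highest for Sgca and Sgcd, and Sspn is the gene whose groups do not overlap.

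Sgcb (ENSMUSG00000029156), on the minus strand of chromosome 5 from position 73632749 to 73647790, encodes beta-sarcoglycan. It stood at 127.8, 115.6 and 122.6 CPM in control muscles and at 117.4, 112.2 and 106.0 CPM in treated muscles. The highest treated muscle lay above the lowest control, and the other 2 lay below all controls. The log2 fold change of -0.12 (standard error 0.091, adjusted p = 1.00 by the quasi-likelihood test) stayed below 0 when any 1 muscle was left out, between -0.16 and -0.087.

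Sgcd (ENSMUSG00000020354) encodes delta-sarcoglycan, which forms the core of the sarcoglycan subcomplex together with beta-sarcoglycan, and its gene covers 1092717 bp of the minus strand of chromosome 11, from position 46896253 to 47988969. It was the least counted of the 8 genes, with 81, 100 and 94 reads in control muscles and 52, 82 and 80 in treated muscles. Counts of 52 to 100 carry a counting error of 10.0 to 13.9% each. In CPM the controls stood at 6.30, 8.36 and 7.71 and the treated muscles at 4.36, 6.296 and 6.38. The groups met at their edges, since Yap-shRNA 3 lay above control 1, and Yap-shRNA 1 was well below all the others. The log2 fold change of -0.39 (standard error 0.20) was the lowest of the 8 genes, and 3.31% of all genes had a lower one. Its unadjusted p was 0.0825 and its adjusted p 1.00 by the quasi-likelihood test. Without Yap-shRNA 1 the log2 fold change was -0.23, and without control 1 it was -0.50 (unadjusted p = 0.0388, adjusted p = 0.682, by the same test).

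The smooth muscle markers (Acta2, Myh11, Tagln, Cnn1 and Smtn), all 5 present in every muscle, had log2 fold changes below 0, with a median of -0.35 and 0 of 5 at an adjusted p under 0.05 by the quasi-likelihood test. Delta-sarcoglycan is also made in smooth muscle. The sum of these markers was 231.1, 367.7 and 236.4 CPM in controls 1 to 3. In the treated muscles 1 to 3 it was 226.7, 201.8 and 271.0 CPM, and control 2 was the highest for both the marker sum and Sgcd. Their part in the Sgcd values was not tested.

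The 2 lowest log2 fold changes of the complex, those of Sgcd and Sspn, were set beside the sequence before their starts, because Yap acts through the TEAD factors, which bind the motif CATTCC. RefSeq windows of 300 bases (250 before and 50 after each start, GRCm38.p6) were at hand for 7 of the 8 genes, with none for Dtna. The 10 windows were searched for CATTCC or its reverse complement GGAATG. The motif was found in 3 of the 10 windows, both of Sspn and the 1 of Sgcd, and in none of the windows of Dmd, Utrn, Dag1, Sgca or Sgcb. Each of the 3 stretches of 30 bases is shown 5′ to 3′ on the strand of its gene, with the motif in capitals.
Sgcd, chr11:47379441-47379470, minus strand: agtgagagagcgGGAATGctgttcaggaaa
Sspn, upstream start, chr6:145931652-145931681, plus strand: gccaataagcagCATTCCtctgaggcttcc
Sspn, principal start, chr6:145933997-145934026, plus strand: aaagcaggctggCATTCCcatcacacaggc

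The first bases of these motifs lay 133, 209 and 113 bases before the respective RefSeq starts. The Sgcd motif falls inside an annotated exon of the GENCODE transcript Sgcd-201, and the first Sspn motif inside an exon of Sspn-203. The second Sspn motif lies before the start of the principal Sspn transcript, in no annotated exon of the gene. The 250 bases before that start are shown whole, since this stretch lies in no annotated exon of Sspn. Exons of other genes were not checked there.
Sspn, chr6:145933872-145934121, plus strand: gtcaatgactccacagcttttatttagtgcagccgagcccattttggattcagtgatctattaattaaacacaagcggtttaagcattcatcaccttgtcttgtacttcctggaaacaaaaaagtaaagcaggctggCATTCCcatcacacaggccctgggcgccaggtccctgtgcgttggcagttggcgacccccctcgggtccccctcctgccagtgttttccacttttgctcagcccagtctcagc

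The motif is short and common. It occurred in 14.7% of the 32851 windows of the RefSeq table. By gene, it occurred in 2 of the 7 complex genes with a window, against 1375 of the 9465 tested genes with one (14.5%). Those 1375 genes had a median log2 fold change of -0.0062, against -0.0032 for tested genes without the motif. The match of letters is a description of these windows and does not show binding. Sgcd and Sspn were picked by their log2 fold changes in these same muscles, and neither passed the threshold. The study states that YAP and TEAD act mainly at distal enhancers, which these windows do not cover. A link between the motif and the level of either gene was not tested.

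Sspn (ENSMUSG00000030255), on the plus strand of chromosome 6 from position 145931641 to 145965223, encodes sarcospan, a small membrane protein of 216 amino acids that joins the sarcoglycans. It stood at 103.4, 100.3 and 98.2 CPM in control muscles and at 85.5, 96.1 and 90.2 CPM in treated muscles. The controls lay within a few CPM of each other and above all 3 treated muscles. As for Chrne below, the separation rested on the scaling. Before scaling, Yap-shRNA 2 had 1251 reads, above control 2 with 1200 and control 3 with 1197. For Sspn the log2 fold change came to -0.15 (standard error 0.089), with an unadjusted p of 0.123 and an adjusted p of 1.00 by the quasi-likelihood test. It stayed between -0.20 and -0.11 when each muscle was left out in turn. Its exons share 69 bp with Sspnos on the opposite strand, and no strand setting is given for the counting.

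Dtna encodes alpha-dystrobrevin, the cytoplasmic partner of dystrophin and utrophin, on mouse chromosome 18. Its levels were 88.4, 81.2 and 94.4 CPM in controls and 91.4, 84.6 and 83.0 CPM in treated muscles, with control 3 the highest and control 2 the lowest. For Dtna the log2 fold change came to -0.027 (standard error 0.096, adjusted p = 1.00 by the quasi-likelihood test) and turned to 0.026 without control 3 and to 0.00044 without Yap-shRNA 3.

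Much of the spread among the controls went with gene length. Dmd and Utrn, with merged exons of 23801 and 17108 bp, were highest in control 1 and lowest in control 2, like the long genes of the whole table, and Sgca, with 1735 bp, was lowest in control 1 and highest in control 2, like the short ones. When the trend of each library with length was taken out, a step chosen after seeing the data, the coefficient of variation among the 3 controls went from 19.3 to 10.3% for Dmd, from 16.9 to 8.56% for Utrn and from 12.3 to 5.11% for Sgca. For Dag1 it went from 11.0 to 7.59%. It did not shrink for Sgcb (5.04 to 5.19%), Dtna (7.50 to 8.36%) or Sgcd (14.1 to 20.0%). The treated muscles changed little, with 12.6% for Dmd and 2.39% for Utrn after the step. With the trend removed, the log2 fold changes were -0.025 for Dmd (standard error 0.12), -0.0072 for Utrn (0.098), -0.013 for Sgca (0.082), -0.40 for Sgcd (0.21) and -0.16 for Sspn (0.083), and 0 of the 8 genes had an adjusted p under 0.05 by the quasi-likelihood test.

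**Figure D3:**
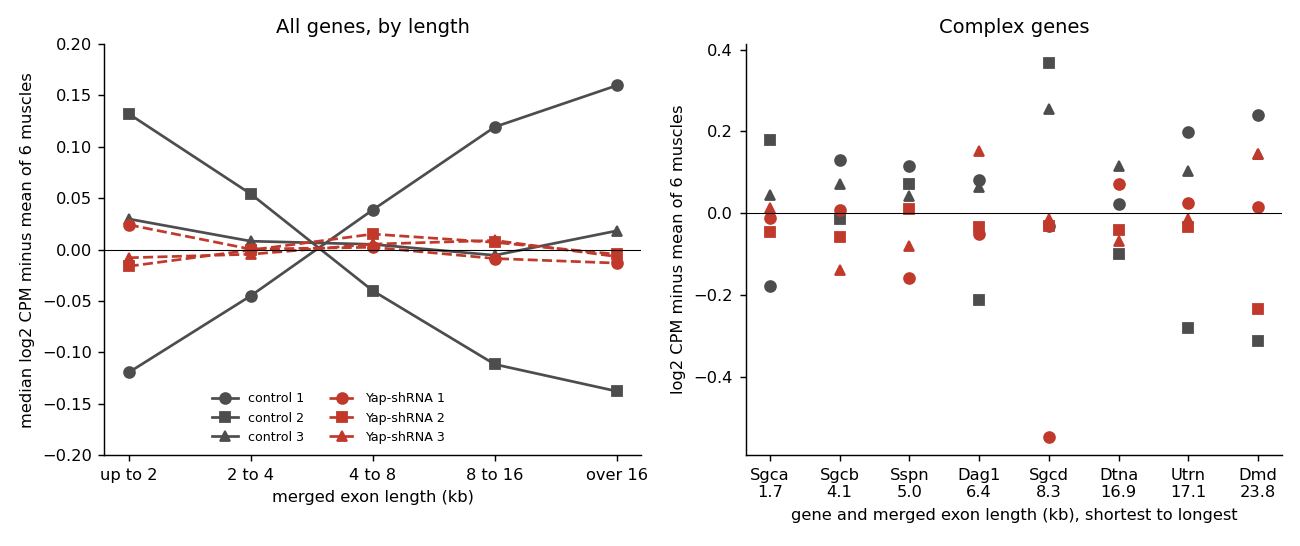
Left, the median deviation of log2 CPM from the mean of the 6 muscles (vertical axis) for all genes in 5 classes of merged exon length (kb, horizontal axis), one line per library. Right, the same deviation for each complex gene, ordered from the shortest to the longest; in the left panel controls 1 and 2 cross from short to long genes and the 4 other libraries stay within 0.030 of 0, and in the right panel Dmd, Utrn and Sgca lie on the same sides as their length class in both controls, while Sgcd lies on the opposite sides.

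Among sarcoglycan transcripts the ratios differed in how steady they were. There were 2.95, 3.05 and 3.09 reads on Sgcd per 100 reads on Sgca in the controls, and 1.82, 2.69 and 2.61 in treated muscles. All 3 treated muscles were below all 3 controls in this ratio, which was chosen after the values were seen and was not tested. Among the ratios computed between complex genes, it was the only ratio whose groups did not overlap. The others computed were Utrn to Dmd, Sgcb to Sgca, Sgcd to Sgcb, Sspn to Sgca, Dmd to Dag1 and Dtna to Dmd. The remaining pairs of complex genes were not compared. How often ratios of other gene pairs separate was not tested. The ratio of Sgcd to Sgcb, its partner in the core, did overlap, at 4.93, 7.24 and 6.29 reads per 100 in controls and 3.71, 5.61 and 6.02 in treated muscles. The SD of the 3 control ratios of Sgcd to Sgca, 0.0743, was smaller than the counting error of Sgcd alone would give. The ratio of Sgcb to Sgca was 50.3 ± 8.86 reads per 100 (SD, n = 3) in controls and 46.7 ± 2.91 (SD, n = 3) in treated muscles, and those ranges overlapped.

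Levels between genes were compared per kilobase of merged exons. In control muscles Sgca was the highest at 141.7 ± 17.5 CPM per kilobase (SD, n = 3), followed by Dag1 at 40.4 ± 4.45, Sgcb at 30.1 ± 1.52 and Sspn at 20.1 ± 0.518. Dtna stood at 5.20 ± 0.390, Dmd at 3.23 ± 0.625, Utrn at 1.42 ± 0.240 and Sgcd at 0.903 ± 0.127 CPM per kilobase. No 2 neighbours in this order overlapped across the 6 muscles. The order itself depended on the length used, since per kilobase of the principal transcript Dtna rose to 55.1 and Sgcd to 4.61, above Utrn at 1.96. Merged exons of Dtna come to 16930 bp, and its principal transcript to 1596 nucleotides in 12 exons, which encode 371 amino acids. Reads on all exons of Dtna were divided by this short length, so 55.1 can be too high. The same holds for the 4.61 of Sgcd, with merged exons of 8257 bp and a principal transcript of 1617 nucleotides.

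**Figure D4:**
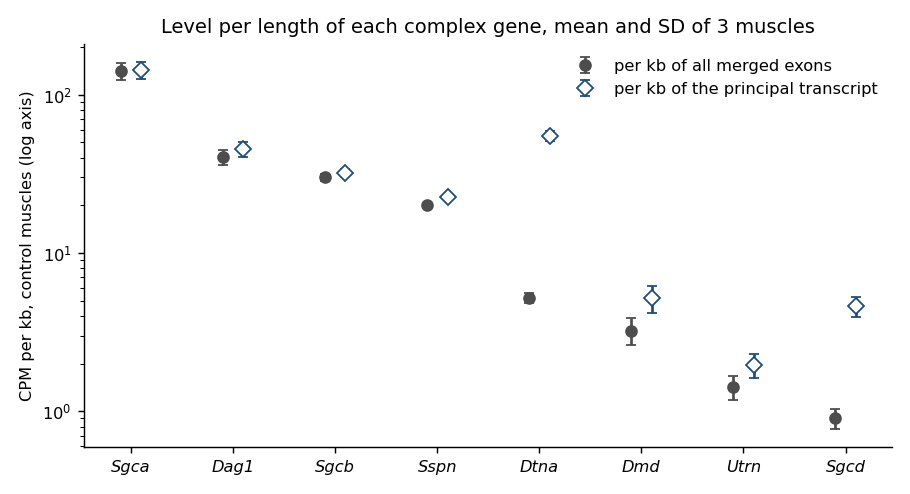
Level per length in control muscles (CPM per kilobase, log axis; mean and SD of 3 muscles) by all merged exons (filled) and by the principal transcript (open). Dtna and Sgcd move most between both lengths, from 5.20 to 55.1 and from 0.903 to 4.61.

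The other genes of the complex and its partners inside the fibre were no different in outcome. Of 13 tested, 4 were above and 9 below 0, the median log2 fold change was -0.047, and 0 had an adjusted p under 0.05 by the quasi-likelihood test. They ran from Dtnb, beta-dystrobrevin, at -0.22 (standard error 0.26) to Sntb2, the beta-2-syntrophin, at 0.35 (0.44), both with few reads (20 to 36 and 8 to 35 a muscle). Sgcz, Sntg1 and Sntg2 of this list were not analysed here.

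Outside the fibre, the laminin chains and other ligands of dystroglycan gave 6 of 10 genes above 0 and a median of 0.047, with 0 past the threshold. The extremes were Bgn, biglycan, at 0.27 (standard error 0.25) and Lamb1, the laminin beta-1 chain, at -0.12 (0.16). The 6 fibroblast markers (Pdgfra, Dcn, Col1a1, Col3a1, Lum and Fn1) summed to 1056 to 2112 CPM in controls and 1256 to 2362 CPM in treated muscles, and both Bgn and that sum were highest in Yap-shRNA 3 and next in control 1. Their part in the Bgn values was not tested.

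The enzymes that build the laminin-binding glycan of alpha-dystroglycan, such as the mannosyltransferase subunits Pomt1 and Pomt2, gave 7 of 17 genes above 0, a median of -0.020 and 0 past the threshold. Their range was narrow, from Dpm2 at -0.21 (standard error 0.17) to Dpm1 at 0.13 (0.22), both subunits of the dolichol-phosphate mannose synthase. The laminin-binding integrin and its adaptors gave 2 of 4 genes above 0, from Tln2, talin 2, at -0.14 (0.15) to Vcl, vinculin, at 0.20 (0.28), and 0 past the threshold. Lama1 of the ligands, Large2 of the enzymes and Ilk of the adaptors were not analysed here.

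At the neuromuscular junction, where utrophin resides, 4 of 11 genes were above 0, the median was -0.10 and 0 passed the threshold. Chrng, the gamma subunit of the fetal acetylcholine receptor, had the highest log2 fold change at 1.05 (standard error 0.83), on 22, 4 and 6 reads in controls and 34, 2 and 30 in treated muscles. Colq, the collagen tail of acetylcholinesterase, had the lowest at -0.32 (0.18). Chrne, the adult epsilon subunit, named here after its values were seen, was the 1 gene of the 11 whose groups did not overlap (2.71% of all genes lower in treated muscles, 5.27% in either direction), at 17.3 ± 2.54 CPM in controls and 14.5 ± 1.14 CPM in treated muscles (SD, n = 3). Its groups all but met, and the separation rested on the scaling. Before scaling, control 2 had 187 reads and Yap-shRNA 3 had 196.

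Genes linked to regeneration (Myh3, Myh8, Myog, Myod1, Myf5, Pax7, Ncam1, Spp1, Tnc and Postn), not all of them genes of fibres, split evenly. Of the 10, 5 were above 0, with a median of -0.0017 and 0 past the threshold. They ran from Postn, periostin, at -0.61 (standard error 0.59) to Myod1, the myogenic transcription factor, at 0.16 (0.25). The wide error of Postn came with 557 reads in control 1 against 128 and 115 in the other controls. The sum of the list was 138.3, 78.3 and 70.8 CPM in controls 1 to 3. In treated muscles 1 to 3 it was 69.3, 62.1 and 133.9 CPM, so 1 muscle of each group stood high.

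**Figure D5:**
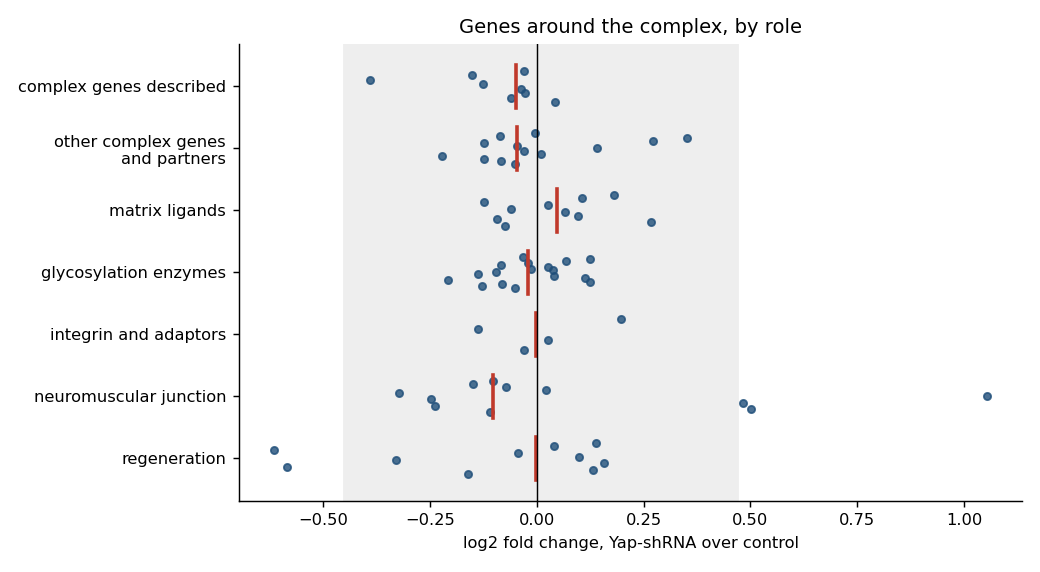
Log2 fold change (horizontal axis, Yap-shRNA over control) of every tested gene around the complex, grouped by role; each point is a gene, red bars are group medians and the grey band holds the middle 95% of all genes. The medians lie between -0.10 and 0.047, and Chrng is the point at 1.05.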

How the data were processed

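RNA-sequencing libraries were made from polyadenylated RNA of 6 TA muscles, 3 per group. The table deposited by the authors holds whole, unnormalised read counts for each gene. The submitters' processing notes name bcl2fastq 2.20.0.422 and build GRCm38, and the aligner and counter of these libraries are not given in the sources used here. The study's methods, written for sorted nuclei, name STAR, featureCounts and removal of genes under a mean count. No gene of the table had fewer than 60 reads over the 6 libraries.

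Counts were scaled by TMM and tested over all 13226 genes with edgeR 4.0.16 in R 4.3.3, by a quasi-likelihood test with no covariate beside the group. P-values were adjusted after Benjamini and Hochberg, with 0.05 as threshold. The standard error was taken as the ratio of the log2 fold change to the root of the F statistic, whose degrees of freedom gave the 95% intervals. DESeq2 1.42.0, limma-voom (limma 3.58.1), the likelihood ratio test, RLE and upper-quartile scaling, a filter of at least 10 counts in every library, a replicate block and leaving out each muscle were alternatives. Offsets following each library's trend with gene length, and levels on the principal transcript, were added after seeing the data. The quasi-likelihood, likelihood ratio, limma-voom, DESeq2, block and length-trend fits were run on simulated counts, and the other alternatives were not.

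The genes, lists and tests were chosen with earlier results of these data known. Named genes were the 8 complex genes, Yap1, in each list the highest and lowest log2 fold change and any gene at an unadjusted p under 0.05 (none), and the 3 genes most like Dmd and Utrn. Lists not described elsewhere were markers of macrophages, endothelium, Schwann cells and adipocytes. Gene positions and lengths came from GENCODE M21 (13199 of 13226 genes matched), promoter windows from RefSeq on GRCm38.p6. No label says that muscles of the same number share an animal, so p-values measure the spread between these muscles. Within groups, chi-square over its degrees of freedom was 7.62 to 21.4 for each pair of libraries, well above counting noise, and each library was kept as a replicate. Intervals of counts cover counting error only.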

Additional observations from a re-analysis of the deposited data

How the results depend on the processing

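The number of complex genes called was 0 under all 14 alternatives. Over all genes, the count of 0 went to 5 under DESeq2 and to 5 under the likelihood ratio test, and leaving out single muscles gave 0 to 1 (1 without Yap-shRNA 3). The cause was not tested. Without control 1, 957 genes had an unadjusted p under 0.05, against 232 with it. Sgcb, Sgcd and Sspn kept their direction under every alternative, and the other 5 changed sign only when a muscle was left out. With single muscles left out, log2 fold changes spanned -0.21 to 0.049 for Dmd, -0.16 to 0.069 for Utrn, -0.047 to 0.094 for Dag1, -0.13 to 0.048 for Sgca and -0.082 to 0.026 for Dtna. With the replicate number as a block, 0 genes were called, and the log2 fold change was -0.050 for Dmd, -0.15 for Sspn and -0.40 for Sgcd (unadjusted p = 0.0480, adjusted p = 1.00, by edgeR's quasi-likelihood test). Same-numbered muscles deviated together with correlations of -0.065, 0.20 and -0.32 over 13226 genes. These values cannot decide whether the numbers are pairs, since controls 1 and 2 carry opposite trends with gene length. The numbers were not taken as pairs because no label ties them to animals. All 13226 rows were used as deposited, and a filter of 10 counts in every library left 12210. At 52 to 100 reads, Sgcd had the least depth of the 8 genes.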

Other observations

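The patterns of Dmd and Utrn over the 6 libraries were shared with many other genes. Among 7954 genes with a mean of at least 100 counts, those most like Dmd in log2 CPM were Iars, an isoleucyl-tRNA synthetase, Atp2a1, the calcium pump of the fast-fibre sarcoplasmic reticulum, and Mstn, myostatin, each with a Pearson's r of 0.98 (n = 6 libraries), and 150 genes had an r over 0.9. Those most like Utrn were Socs7, Pja2 and Polh, with an r of 0.998, 0.997 and 0.994, and 281 genes had an r over 0.9. These values are descriptions over libraries that share the length trend of controls 1 and 2.

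Markers of other cells varied from muscle to muscle, with none at 0 in any library. The 10 macrophage markers summed to 91.5 to 223.2 CPM in controls and 156.5 to 200.5 CPM in treated muscles, and 9 of 10 had a log2 fold change above 0. The 6 endothelial markers summed to 365.7 to 440.5 CPM in controls and 384.1 to 416.9 CPM in treated muscles. The 6 Schwann cell markers summed to 60.9 to 114.8 CPM and 77.4 to 103.5 CPM. The 5 adipocyte markers summed to 238.6 to 269.4 CPM and 232.9 to 287.2 CPM. The median log2 fold change of the adipocyte markers was 1.04, and 4 of the 5 (Adipoq, Plin1, Cfd and Lep) had their highest count in Yap-shRNA 3. These 4 averaged only 0.66 (Lep) to 11.5 CPM (Cfd) in controls. The remaining marker, Fabp4, averaged 238.2 CPM in controls and had a log2 fold change of -0.098. Most of the adipocyte sum was therefore Fabp4, while the median came from the low markers. Of the genes of these 4 lists 0 passed the threshold in the quasi-likelihood test of edgeR.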
